A study of Homo sapiens with 8 samples.

Results

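The BCL2 family decides whether the outer mitochondrial membrane is opened during apoptosis. Its messenger RNA levels were measured by RNA-Seq in LN229 cells, an established human glioblastoma line, with and without temozolomide (TMZ), the methylating drug used against glioblastoma. The 10 members were chosen by name, with earlier results of these data known. The pro-survival genes are BCL2, BCL2L1 and MCL1, the effectors are BAX and BAK1, and the BH3-only genes are BBC3, PMAIP1, BCL2L11, BID and BAD. All 10 were among the 26364 genes of the count table, and all 10 were among the 14201 genes with enough counts to be tested. The study asked how the place of Survivin (BIRC5), an inhibitor of apoptosis that also acts in mitosis, changes the response to TMZ. Surv-GFP cells (clone D6) carry wild-type Survivin fused to GFP with a working nuclear export sequence, and the fusion protein is mostly cytoplasmic. SurvNESmut-GFP cells (clone L2) carry the same fusion with the substitutions L96A and L98A in the nuclear export sequence, and the protein is mostly nuclear. Both were made by stable transfection and G418 selection, both still hold the endogenous BIRC5 gene, and each was taken without treatment or after 48 h in 50 µM TMZ, with 2 libraries in each of the 4 groups (a and b). Each form of Survivin is represented by 1 clone, so that the form and the clone cannot be told apart, and neither the parental line nor a vector control was analysed here.

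In this family the pro-survival proteins bind and hold the effectors, and the effectors form pores through which cytochrome c leaves the mitochondrion. BH3-only proteins are the sensors of stress: some free the effectors by occupying the pro-survival proteins, and some also activate the effectors directly. BAX, BBC3 (PUMA) and PMAIP1 (NOXA) are textbook targets of p53, while PMAIP1 and BCL2L11 (BIM) are also known to respond to other stress pathways. The activity of several members depends on protein stability, phosphorylation or cleavage, which RNA levels do not show. BCL2L1, MCL1 and BCL2L11 each give splice forms of differing action, which counts per gene do not separate.

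Between 15826923 and 18861603 reads were counted on genes in each library, and the 10 members together took 0.0918% to 0.126% of them. Levels below are CPM (read counts per 1000000 counted reads, scaled by edgeR's normalization factors), which are relative to the RNA of the whole library. In these bulk cultures fewer expressing cells and less RNA per cell cannot be told apart. The b library of each group was close to its a library (r of log2 CPM of at least 0.996), but the SurvNESmut-GFP TMZ pair stood further apart than the others, with a chi-square per degree of freedom of 5.74 against at most 2.66. No pair agreed within sampling noise. Of the glioma markers, 7 of 8 passed the filter on low counts and GFAP did not, lying between 0 and 0.921 CPM. Their summed level was 5972 to 6033 CPM in untreated Surv-GFP, 3871 to 3957 CPM in Surv-GFP under TMZ, 4662 to 4858 CPM in untreated SurvNESmut-GFP and 4131 to 4269 CPM in SurvNESmut-GFP under TMZ. Among them S100B was at 798 and 756 CPM in untreated Surv-GFP and at 41.2 and 40.1 CPM in untreated SurvNESmut-GFP. The markers did not all go this way between the untreated clones. S100B, OLIG2, SOX2 and VIM were lower in SurvNESmut-GFP (log2 difference -4.26, -2.29, -1.40 and -0.32). NES and CD44 were higher (0.39 and 0.19), and EGFR (0.14) was not called at an adjusted p under 0.05 by edgeR's test. The summed level of 12 markers of leukocytes, endothelium, neurons and epithelium was 29.8 to 39.2 CPM, most of it from CD68 and SNAP25. The latter sum was 32.3 to 34.3 CPM in untreated Surv-GFP, 29.8 to 30.2 CPM in Surv-GFP under TMZ, 35.1 to 39.2 CPM in untreated SurvNESmut-GFP and 33.0 to 38.7 CPM in SurvNESmut-GFP under TMZ, and the part of either sum in the results was not tested. BIRC5, counted together with any transgene reads, was at 1152 and 1113 CPM in untreated Surv-GFP, 1938 and 2029 CPM in Surv-GFP under TMZ, 407 and 414 CPM in untreated SurvNESmut-GFP and 262 and 253 CPM in SurvNESmut-GFP under TMZ. CDKN1A, which encodes the p53 target p21, rose from 86.6 and 77.3 to 908 and 975 CPM in Surv-GFP and from 117 and 119 to 429 and 492 CPM in SurvNESmut-GFP.

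TMZ moved 9 of the 10 members in Surv-GFP and 7 of the 10 in SurvNESmut-GFP at an adjusted p under 0.05 (edgeR's quasi-likelihood test with Benjamini-Hochberg adjustment over the 14201 genes, as for every adjusted p below). In Surv-GFP 6 members rose and 3 fell, where 30.1% of all tested genes rose and 28.9% fell. In SurvNESmut-GFP 5 members rose and 2 fell, where 18.6% of tested genes rose and 19.1% fell. BAX, BAK1, BBC3, PMAIP1 and BCL2L1 rose in both clones. BCL2L11 fell in both, but its call in SurvNESmut-GFP was not made by DESeq2, with a robust prior or with library size alone. MCL1 was called lower in SurvNESmut-GFP only, and that call was not made by DESeq2 or with a robust prior. A rise of at least 2-fold was seen for BBC3, PMAIP1 and BAX in Surv-GFP, 3 of 10 members against 5.18% of tested genes. In SurvNESmut-GFP it was seen for BBC3 alone, 1 of 10 members against 2.37% of tested genes. PMAIP1 lay just under this threshold there (1.97-fold) and passed it with library size alone (log2 change 1.02). A fall of at least 2-fold was seen for 0 of 10 members in either clone. Of tested genes 5.29% fell so far in Surv-GFP and 1.76% in SurvNESmut-GFP. The 2-fold counts, here and below, were chosen after values were seen, and the members with earlier results known. Set beside the share of all genes they are descriptions and do not test the family. The members had a median log2 change of 0.39 in Surv-GFP, with 0 over all tested genes, and of 0.43 in SurvNESmut-GFP, with 0.0035 over all tested genes.

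**Figure D1:**
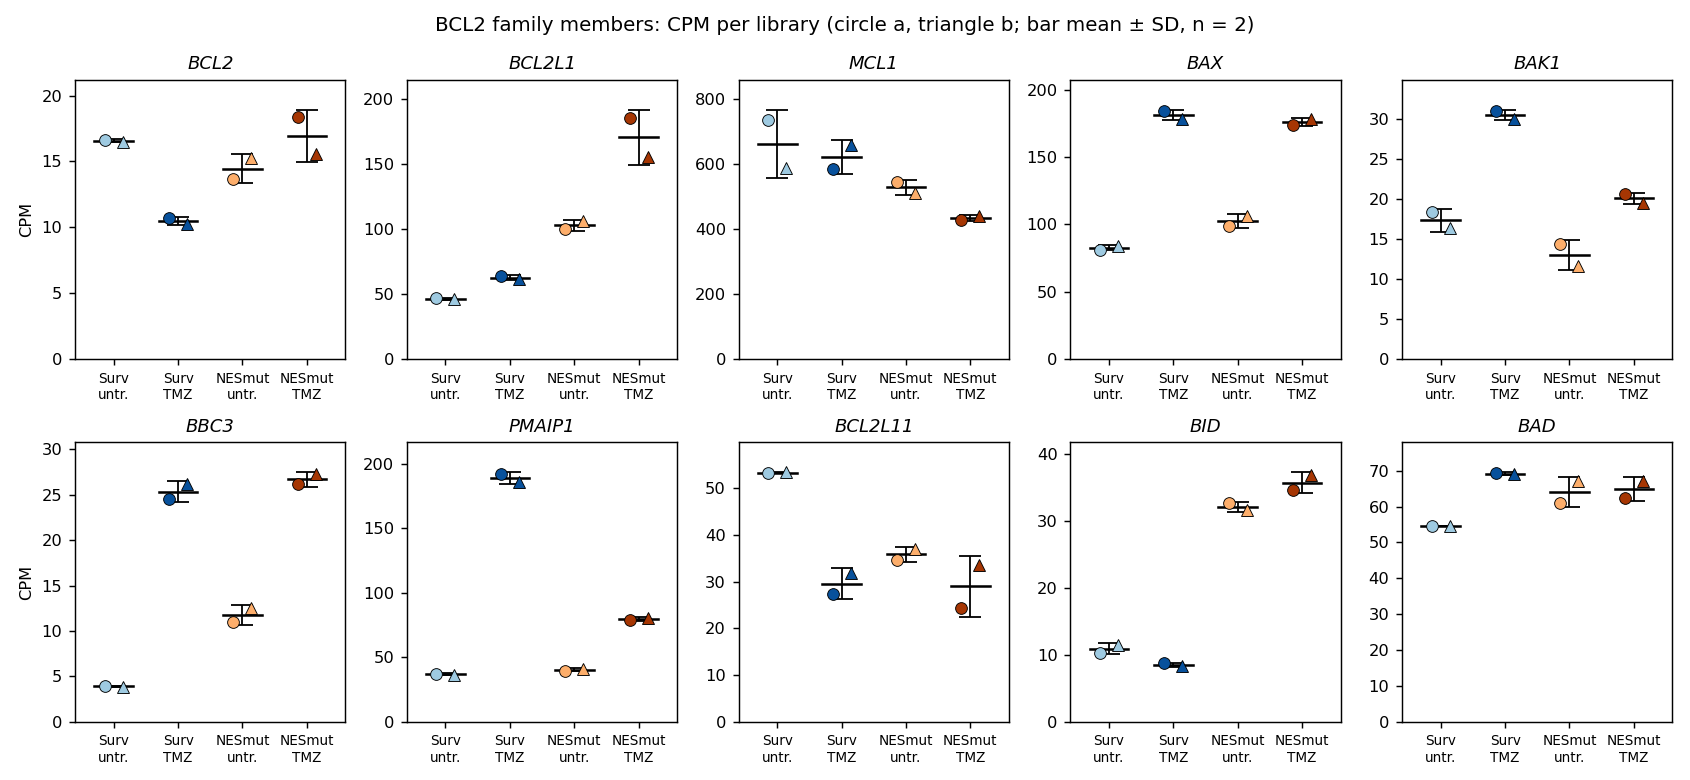
Level of each of the 10 members in CPM (linear axis from 0) in the 8 libraries, circles for the a and triangles for the b library, with bars for the mean ± SD (n = 2). BBC3 reached 24.5 to 27.2 CPM under TMZ in both clones from unequal untreated levels, whereas PMAIP1 started at 36.4 to 41.2 CPM in both and reached 186 to 192 CPM in Surv-GFP but 78.6 and 80.6 CPM in SurvNESmut-GFP.

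The BH3-only genes BBC3 and PMAIP1 rose most among the members. BBC3, whose product PUMA binds all pro-survival proteins, was at 3.96 and 3.81 CPM in untreated Surv-GFP and at 24.5 and 26.2 CPM under TMZ. In SurvNESmut-GFP it was at 11.0 and 12.5 CPM untreated and at 26.1 and 27.2 CPM under TMZ. Both treated pairs lay above both untreated pairs, and the untreated pairs did not overlap each other. The log2 change was 2.70 (SE 0.12, adjusted p = 8.5e-12; 6.51-fold) in Surv-GFP and 1.19 (SE 0.10, adjusted p = 7.1e-08; 2.27-fold) in SurvNESmut-GFP. The untreated Surv-GFP level rests on 73 and 69 reads.

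PMAIP1 encodes NOXA, which binds chiefly MCL1. It was at 37.4 and 36.4 CPM in untreated Surv-GFP and at 192 and 186 CPM under TMZ. In SurvNESmut-GFP it went from 39.5 and 41.2 CPM to 78.6 and 80.6 CPM. The treated levels of the clones were well apart, while the untreated levels were close. The log2 change was 2.36 (SE 0.05, adjusted p = 2.7e-15; 5.12-fold) in Surv-GFP and 0.98 (SE 0.06, adjusted p = 1.3e-09; 1.97-fold) in SurvNESmut-GFP. By size of rise, BBC3 ranked 140 and PMAIP1 187 of 14201 genes in Surv-GFP, and 311 and 452 in SurvNESmut-GFP.

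The effectors rose in both clones. BAX, the effector that moves from the cytosol to mitochondria, stood at 81.3 and 84.1 CPM in untreated Surv-GFP and at 184 and 178 CPM under TMZ. In SurvNESmut-GFP its level was 98.7 and 106 CPM untreated and 174 and 178 CPM under TMZ. The treated levels of the clones were close to each other, and all lay above the untreated ones. The log2 change was 1.13 (SE 0.05, adjusted p = 1.8e-11) in Surv-GFP and 0.78 (SE 0.05, adjusted p = 7.1e-09) in SurvNESmut-GFP. BAK1, the effector resident on mitochondria, went from 18.3 and 16.3 to 31.0 and 30.0 CPM in Surv-GFP, a log2 change of 0.81 (SE 0.10, adjusted p = 1.6e-06). In SurvNESmut-GFP it went from 14.4 and 11.7 to 20.6 and 19.5 CPM, a log2 change of 0.62 (SE 0.11, adjusted p = 0.00023). All treated BAK1 values lay above all untreated ones.

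BCL2L1 also rose in both clones, but its windows enter only the counts below. The windows shown are those around the annotated starts of these 4 genes, the effector and BH3-only genes that rose in both clones. Each runs from 250 bases before to 50 bases after a RefSeq gene start, 5′ to 3′ on the gene's strand (GRCh38.p14). The p53 decamer was searched as a pair with a gap of 0 to 13 bases, at most 3 mismatches in all, at most 2 in 1 decamer and the central C and G kept. The 6-base motifs CACGTG (the E-box core) and TGACGT (the core of ATF and CREB sites) were searched on both strands. Capitals mark the matches, and no 2 matches overlapped.
BBC3 (chr19:47232618-47232917, minus strand): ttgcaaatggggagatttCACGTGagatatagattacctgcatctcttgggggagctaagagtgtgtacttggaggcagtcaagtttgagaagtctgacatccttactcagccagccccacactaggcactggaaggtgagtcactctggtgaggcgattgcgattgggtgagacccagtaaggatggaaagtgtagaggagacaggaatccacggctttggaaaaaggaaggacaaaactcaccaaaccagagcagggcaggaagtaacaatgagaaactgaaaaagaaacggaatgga
PMAIP1 (chr18:59899746-59900045, plus strand): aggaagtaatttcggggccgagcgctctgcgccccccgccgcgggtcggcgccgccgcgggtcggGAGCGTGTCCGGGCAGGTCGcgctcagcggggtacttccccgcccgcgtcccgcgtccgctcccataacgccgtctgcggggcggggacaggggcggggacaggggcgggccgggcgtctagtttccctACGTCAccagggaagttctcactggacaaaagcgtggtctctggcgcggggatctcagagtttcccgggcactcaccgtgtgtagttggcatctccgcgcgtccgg
BAX (chr19:48954625-48954924, plus strand): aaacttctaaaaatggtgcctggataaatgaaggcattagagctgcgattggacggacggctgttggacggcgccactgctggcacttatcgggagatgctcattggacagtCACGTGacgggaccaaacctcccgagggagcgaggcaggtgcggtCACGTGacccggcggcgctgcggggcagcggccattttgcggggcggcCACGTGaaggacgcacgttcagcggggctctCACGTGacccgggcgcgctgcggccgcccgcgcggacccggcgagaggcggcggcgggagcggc
BAK1 (chr6:33580227-33580526, minus strand): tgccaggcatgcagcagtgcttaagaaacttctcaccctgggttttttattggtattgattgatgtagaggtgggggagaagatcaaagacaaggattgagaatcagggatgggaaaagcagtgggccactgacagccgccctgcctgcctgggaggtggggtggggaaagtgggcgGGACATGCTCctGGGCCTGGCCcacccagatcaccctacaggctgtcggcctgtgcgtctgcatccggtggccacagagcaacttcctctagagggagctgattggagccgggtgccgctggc
In BAK1 the capitals are a perfect p53 decamer from position -73 and a second from -61, with 2 mismatches between them. In PMAIP1 they are a decamer pair from -185 and -175 with 3 mismatches, and TGACGT on the opposite strand at -56. BAX holds CACGTG 4 times, at -138, -93, -45 and -14, and BBC3 holds it once, at -232. No decamer pair lay in these windows of BAX and BBC3, and sequence outside the windows was not searched. A decamer pair was found in 11.3% of the 35116 windows of the table, a perfect decamer in 6.63%, CACGTG in 7.26% and TGACGT in 7.98%. Windows were found for 9 of the 10 members, not for MCL1, and several starts gave these 9 members 15 windows, some of them overlapping. Of the 15 windows 3 held a decamer pair (in BAK1, PMAIP1 and BCL2L1), 4 held CACGTG (in BAX, BBC3 and BID) and 3 held TGACGT (in PMAIP1 and BAD). A match describes letters and is not evidence of binding.

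The other BH3-only genes moved less and not all in the same direction. BCL2L11 (BIM) was at 53.4 CPM in both untreated Surv-GFP libraries and at 27.3 and 31.9 CPM under TMZ. Its log2 change was -0.85 (SE 0.10, adjusted p = 2.7e-06) in Surv-GFP. In SurvNESmut-GFP it went from 34.8 and 36.9 CPM to 24.4 and 33.7 CPM, with the treated libraries far apart, and the log2 change was -0.31 (SE 0.11, adjusted p = 0.0378). That call was not made by DESeq2 (adjusted p = 0.0534), and without the SurvNESmut-GFP TMZ a library the log2 change was -0.09 (adjusted p = 0.510), while without the b library it was -0.55 (adjusted p = 3.0e-05). BID, the BH3-only protein that caspases cleave into its active form, was at 10.4 and 11.5 CPM in untreated Surv-GFP and 8.77 and 8.32 CPM under TMZ (log2 change -0.35, SE 0.11, adjusted p = 0.0109), a call that was lost without the untreated b library (adjusted p = 0.108). In SurvNESmut-GFP BID lay between 31.6 and 36.9 CPM in all 4 libraries, and its log2 change of 0.15 (SE 0.08) had an adjusted p of 0.124. BAD, whose BH3 activity is switched off by phosphorylation, rose from 54.7 CPM in both untreated Surv-GFP libraries to 69.5 and 69.0 CPM (log2 change 0.34, SE 0.06, adjusted p = 0.00014). In SurvNESmut-GFP it was at 61.1 and 67.1 CPM untreated and 62.5 and 67.2 CPM under TMZ, with a log2 difference of 0.02 (95% interval -0.11 to 0.15, adjusted p = 0.852).

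The 3 pro-survival genes each took their own course. BCL2, the founding member, fell in Surv-GFP from 16.6 and 16.5 CPM to 10.7 and 10.3 CPM, a log2 change of -0.66 (SE 0.11, adjusted p = 7.1e-05). In SurvNESmut-GFP it was at 13.7 and 15.2 CPM untreated and at 18.4 and 15.6 CPM under TMZ, and the log2 change of 0.24 (SE 0.11) had an adjusted p of 0.0903. Without the SurvNESmut-GFP TMZ b library BCL2 was called higher there (0.35, adjusted p = 0.0165). BCL2L1, which encodes BCL-XL, rose in both clones. Its level went from 46.9 and 45.8 to 63.8 and 61.3 CPM in Surv-GFP and from 99.6 and 106 to 185 and 155 CPM in SurvNESmut-GFP. The log2 change was 0.43 (SE 0.08, adjusted p = 0.00015) in the first clone and 0.73 (SE 0.07, adjusted p = 3.8e-07) in the second. MCL1, the short-lived pro-survival protein that NOXA binds, was the member with the highest CPM in every library. Its Surv-GFP levels were 737 and 588 CPM untreated and 586 and 659 CPM under TMZ, so that the groups overlapped (log2 difference -0.09, 95% interval -0.26 to 0.08, adjusted p = 0.347). The direction for MCL1 rested on the untreated pair: without library a the difference was 0.08, and without library b it was -0.24 (adjusted p = 0.0113). In SurvNESmut-GFP MCL1 fell from 544 and 511 to 427 and 440 CPM (log2 change -0.29, SE 0.08, adjusted p = 0.0103). That call was not made by DESeq2 (adjusted p = 0.0899) or with a robust prior in edgeR's test (adjusted p = 0.102). Without the untreated SurvNESmut-GFP a library the log2 change was -0.24.

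**Figure D2:**
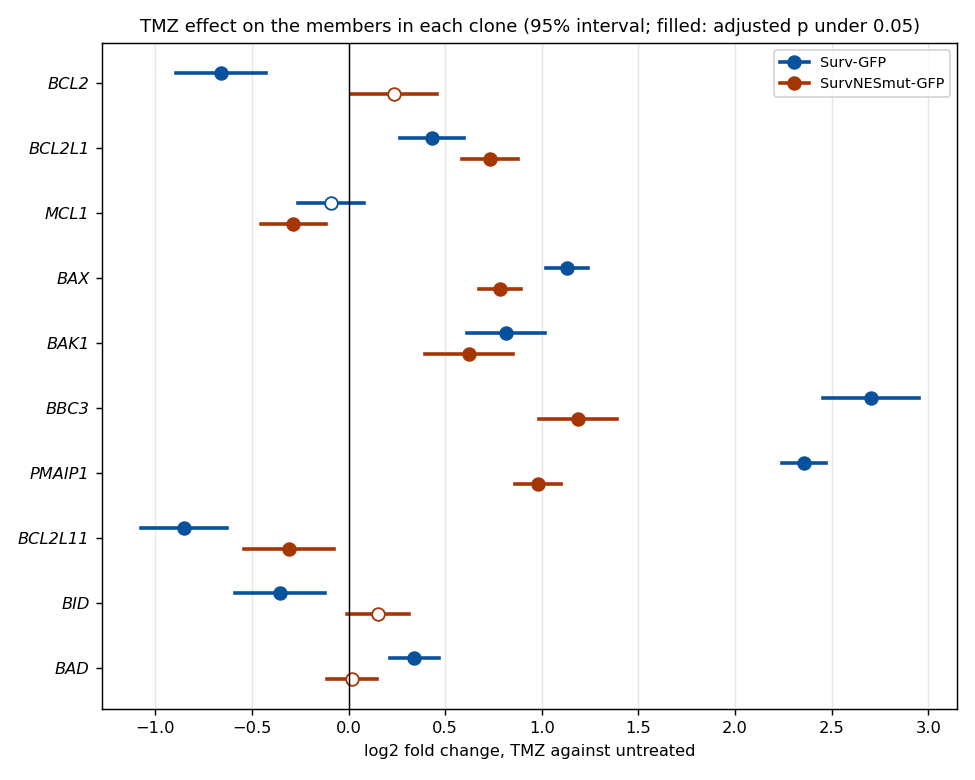
Log2 fold change of the 10 members under TMZ against untreated cells in Surv-GFP (blue) and SurvNESmut-GFP (brown), with 95% intervals and filled points where the adjusted p was under 0.05. The intervals of BBC3 and PMAIP1 were far apart between the clones, and BCL2 lay below 0 in Surv-GFP only.

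Whether TMZ acted differently in the clones was tested as an interaction, the log2 change in SurvNESmut-GFP minus that in Surv-GFP. Higher and lower refer to the sign of this value, so that higher can mean a smaller fall, as for BCL2L11. The TMZ effect differed for 8 of the 10 members. It was higher in SurvNESmut-GFP for 4 (BCL2, BCL2L1, BCL2L11 and BID), where 16.6% of tested genes were called in that direction, and lower for 4 (BBC3, PMAIP1, BAX and BAD), where 20.2% were. A difference of at least 2-fold toward the lower side was found for BBC3 and PMAIP1, 2 of 10 members against 2.99% of tested genes. Toward the higher side it was found for 0 of 10 members, against 2.5% of tested genes. The interaction shares its libraries with both TMZ effects, so that its sign is not independent of them.

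The difference was -1.52 (SE 0.16, adjusted p = 1.9e-06) for BBC3 and -1.38 (SE 0.08, adjusted p = 1.9e-09) for PMAIP1 on the log2 scale. For the remaining members called lower it was smaller, at -0.35 (SE 0.07, adjusted p = 0.0014) for BAX and -0.32 (SE 0.09, adjusted p = 0.0072) for BAD. BCL2 had the largest difference toward the higher side, 0.89 (SE 0.15, adjusted p = 0.00023). It was 0.54 (SE 0.15, adjusted p = 0.0105) for BCL2L11 and 0.51 (SE 0.13, adjusted p = 0.0069) for BID. The call for BCL2L11 was lost without the Surv-GFP TMZ a library (adjusted p = 0.0629) or the untreated SurvNESmut-GFP a library (adjusted p = 0.0565), and that for BID without the untreated Surv-GFP b library (adjusted p = 0.0517). Without the SurvNESmut-GFP TMZ b library the BCL2L11 difference was 0.30 (adjusted p = 0.0473). The call for BCL2L1 was the weakest, at 0.30 (SE 0.10, adjusted p = 0.0322), and leaving out any of 6 of the 8 libraries ended it (adjusted p of 0.0557 to 0.134). Without the SurvNESmut-GFP TMZ a library, the BCL2L1 difference was 0.16. For BAK1 the difference was -0.19 (95% interval -0.50 to 0.11, adjusted p = 0.324) and for MCL1 -0.19 (95% interval -0.43 to 0.05, adjusted p = 0.199). Without the untreated Surv-GFP a library, MCL1 was called lower, at -0.37 (adjusted p = 0.0085).

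Comparing the clones under one condition showed where these differences lay. Untreated, 5 members were higher in SurvNESmut-GFP than in Surv-GFP, where 34.7% of tested genes were, and 3 were lower, where 29.4% were. BBC3, BID and BCL2L1 were higher by at least 2-fold, 3 of 10 members against 7.85% of tested genes. Lower by at least 2-fold were 0 of 10 members, against 7.77% of tested genes. The log2 difference was 1.59 (SE 0.13, adjusted p = 2.0e-08; 3.02-fold) for BBC3, 1.56 (SE 0.09, adjusted p = 2.1e-10; 2.94-fold) for BID and 1.15 (SE 0.07, adjusted p = 1.0e-09; 2.22-fold) for BCL2L1. BAX (0.31, SE 0.05, adjusted p = 9.2e-05) and BAD (0.23, SE 0.06, adjusted p = 0.0036) were higher by less. BCL2L11 was lower in untreated SurvNESmut-GFP (-0.58, SE 0.10, adjusted p = 0.00011), as were BAK1 (-0.41, SE 0.11, adjusted p = 0.0031) and MCL1 (-0.33, SE 0.08, adjusted p = 0.0019). Leaving out 1 library ended the call for BAD and BAK1 (the untreated SurvNESmut-GFP b library, adjusted p = 0.0679 and 0.0712) and for MCL1 (the untreated Surv-GFP a library, adjusted p = 0.0842, with a log2 difference of -0.15). BCL2 differed by -0.20 (95% interval -0.42 to 0.02, adjusted p = 0.105) and PMAIP1 by 0.13 (95% interval 0.0025 to 0.26, adjusted p = 0.0692). BCL2 was called lower with library size alone (adjusted p = 0.0414), in a fit of only the 4 untreated libraries (adjusted p = 0.0318) and without the SurvNESmut-GFP TMZ a or b library (adjusted p = 0.0327 and 0.0320).

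Under TMZ 3 members were higher in SurvNESmut-GFP, where 34.5% of tested genes were, and 3 were lower, where 34.7% were. At least 2-fold higher were 2 of 10 members, against 10% of tested genes, and at least 2-fold lower 1 of 10, against 8.2%. BID (log2 difference 2.06, SE 0.09, adjusted p = 1.0e-11; 4.18-fold) and BCL2L1 (1.45, SE 0.07, adjusted p = 2.6e-11; 2.73-fold) were again higher, and BCL2 was higher as well (0.70, SE 0.11, adjusted p = 3.3e-05). PMAIP1 was lower (-1.25, SE 0.05, adjusted p = 2.1e-12; 2.37-fold), as were BAK1 (-0.60, SE 0.09, adjusted p = 2.8e-05) and MCL1 (-0.52, SE 0.08, adjusted p = 2.3e-05). For BBC3 the clones under TMZ differed by 0.08 (95% interval -0.11 to 0.26, adjusted p = 0.447), so that the 3.02-fold gap of the untreated cells was not found there. BAX (-0.04, 95% interval -0.15 to 0.06), BCL2L11 (-0.03, 95% interval -0.27 to 0.21) and BAD (-0.09, 95% interval -0.22 to 0.03) did not pass the test either. BCL2L11 rested on single libraries here too, since without the SurvNESmut-GFP TMZ b library the difference was -0.31 (adjusted p = 0.0065) and without the a library 0.15. BBC3 and PMAIP1 thus reached their smaller TMZ effects in SurvNESmut-GFP by different levels: BBC3 was higher before treatment, and PMAIP1 was lower after it.

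**Figure D3:**
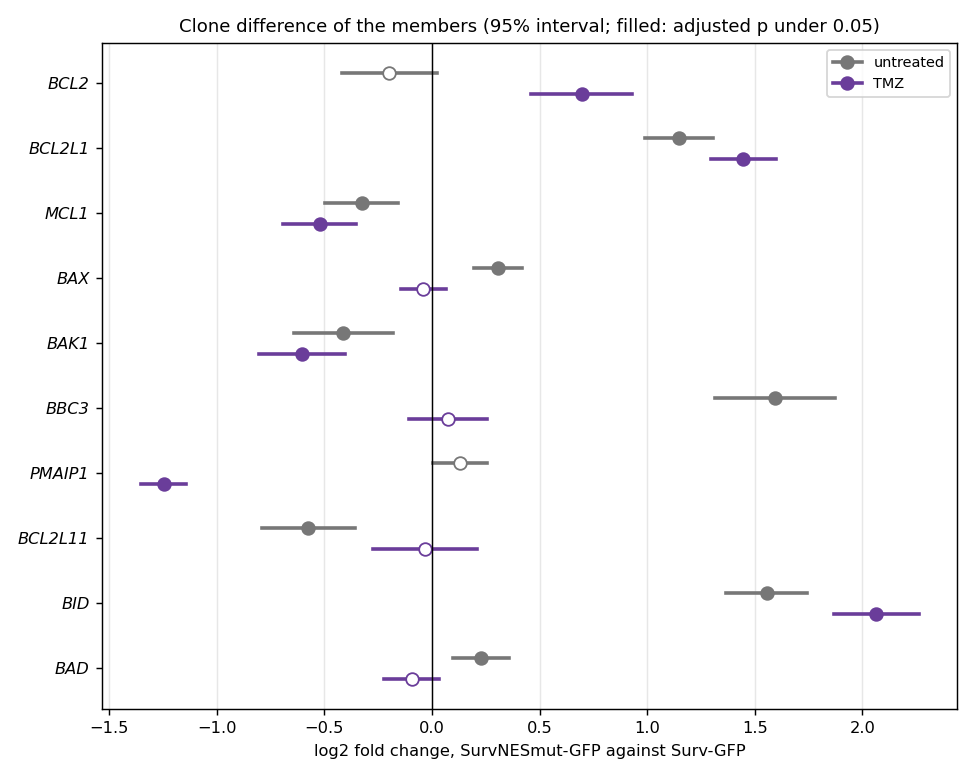
Log2 fold change of the 10 members in SurvNESmut-GFP against Surv-GFP, untreated (grey) and under TMZ (purple), with 95% intervals and filled points where the adjusted p was under 0.05. BID and BCL2L1 were higher in SurvNESmut-GFP under both conditions, BBC3 passed the test only without TMZ, and PMAIP1, lower in SurvNESmut-GFP, only with it.

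Ratios between an opposing pair of members within a library do not depend on how libraries are scaled, and they are given as descriptions of counts per gene, not of protein. The log2 ratio of BAX to BCL2 counts was 2.29 and 2.35 in untreated Surv-GFP and 4.10 and 4.12 under TMZ. In SurvNESmut-GFP it was 2.85 and 2.80 untreated and 3.24 and 3.52 under TMZ. TMZ raised its mean by 1.79 in the first clone and 0.56 in the second. Set against BCL2L1 instead, BAX gained 0.70 in the first clone but only 0.06 in the second. In the second clone the untreated values of this ratio (-0.013 and -0.00076) lay between the treated ones (-0.092 and 0.198). The rise thus depended on the pro-survival gene chosen. BBC3 to MCL1 gained 2.79 and 1.47 in the first and second clone, and BBC3 to BCL2L1 gained 2.27 and 0.46. For PMAIP1 to MCL1, a binding pair, the mean log2 ratio went from -4.16 to -1.72 in Surv-GFP and from -3.71 to -2.44 in SurvNESmut-GFP. BCL2L11 to BCL2L1 fell in mean by 1.29 in Surv-GFP and by 1.05 in SurvNESmut-GFP. Among the pro-survival genes, the mean log2 ratio of BCL2L1 to MCL1 was -3.83 in untreated Surv-GFP, -3.31 under TMZ, -2.36 in untreated SurvNESmut-GFP and -1.35 under TMZ, and the libraries of these 4 groups did not overlap.

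**Figure D4:**
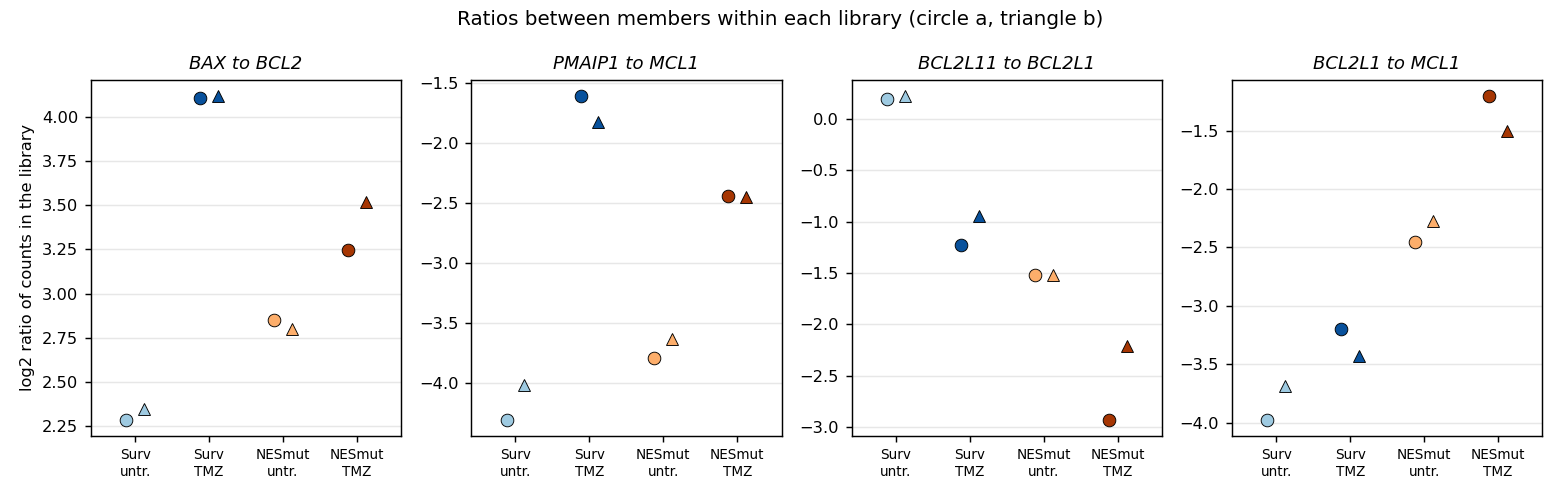
Log2 ratio of read counts of 4 pairs of members within each of the 8 libraries (circles a, triangles b). BAX to BCL2 rose under TMZ from 2.29 and 2.35 to 4.10 and 4.12 in Surv-GFP, and BCL2L1 to MCL1 was higher in all 4 SurvNESmut-GFP libraries than in the Surv-GFP libraries.

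The other genes of the family were taken as a list of 13, of which 8 passed the filter on low counts. The remainder were near or at 0: BCL2L14 had no read in any library, and BCL2L10, HRK, BIK and BCL2L15 had at most 10 reads in any library. TMZ raised 2 and lowered 3 of the 8 in Surv-GFP, near the 30.1% and 28.9% of all tested genes. In SurvNESmut-GFP it raised 1 and lowered 4, against 18.6% and 19.1% of tested genes. The median log2 change of the 8 was -0.09 in Surv-GFP, with 0 over all tested genes, and -0.43 in SurvNESmut-GFP, with 0.0035 over all tested genes. BMF, a BH3-only gene, fell in both clones: from 9.48 and 7.67 to 2.30 and 2.76 CPM in Surv-GFP (log2 change -1.77, SE 0.31, adjusted p = 0.00013), and from 77.3 and 67.4 to 8.42 and 17.1 CPM in SurvNESmut-GFP (-2.51, SE 0.17, adjusted p = 1.1e-08). Untreated, it was higher in SurvNESmut-GFP by 3.07 on the log2 scale (SE 0.18, adjusted p = 2.6e-10; 8.42-fold), more than any of the 10 members differed between the clones. Its TMZ effects differed by -0.75 (95% interval -1.58 to 0.08, adjusted p = 0.150). BCL2L2, which encodes the pro-survival BCL-W, was at 50.0 and 49.7 CPM in untreated Surv-GFP and 90.2 and 90.0 CPM under TMZ, and at 46.9 to 50.1 CPM in all 4 SurvNESmut-GFP libraries. The log2 change was 0.85 (SE 0.05, adjusted p = 6.8e-10) in Surv-GFP and 0.08 (SE 0.06, adjusted p = 0.303) in SurvNESmut-GFP, and the difference of -0.78 (SE 0.08) had an adjusted p of 1.1e-06.

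BNIP3 and BNIP3L, known for their part in mitophagy, fell in both clones, with log2 changes of -0.37 and -0.40 in Surv-GFP and -0.65 and -0.73 in SurvNESmut-GFP. The difference was -0.28 (adjusted p = 0.0333) for BNIP3 and -0.33 (adjusted p = 0.0023) for BNIP3L. BCL2L13 rose in both clones, by 0.54 and 0.37. BCL2A1, a pro-survival gene with 33 to 121 reads a library, fell in SurvNESmut-GFP (-0.69, adjusted p = 0.0201), and its log2 change of 0.23 in Surv-GFP did not pass the test (adjusted p = 0.253). Its TMZ effects differed by -0.92 (SE 0.27, adjusted p = 0.0151). BOK, an effector-like gene, and BCL2L12 passed the test in neither clone, with log2 changes of -0.17 and -0.01 in Surv-GFP and -0.11 and -0.21 in SurvNESmut-GFP. In all, 4 of the 8 (BCL2L2, BCL2A1, BNIP3 and BNIP3L) had a lower signed log2 change in SurvNESmut-GFP, against 20.2% of tested genes. For BNIP3 and BNIP3L this was a larger fall, while for BCL2L2 the rise of Surv-GFP was not found. A higher change was called for 0 of the 8, against 16.6% of tested genes. It was 0 also at an unadjusted p under 0.05 and by DESeq2, which called 2 lower.

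**Figure D5:**
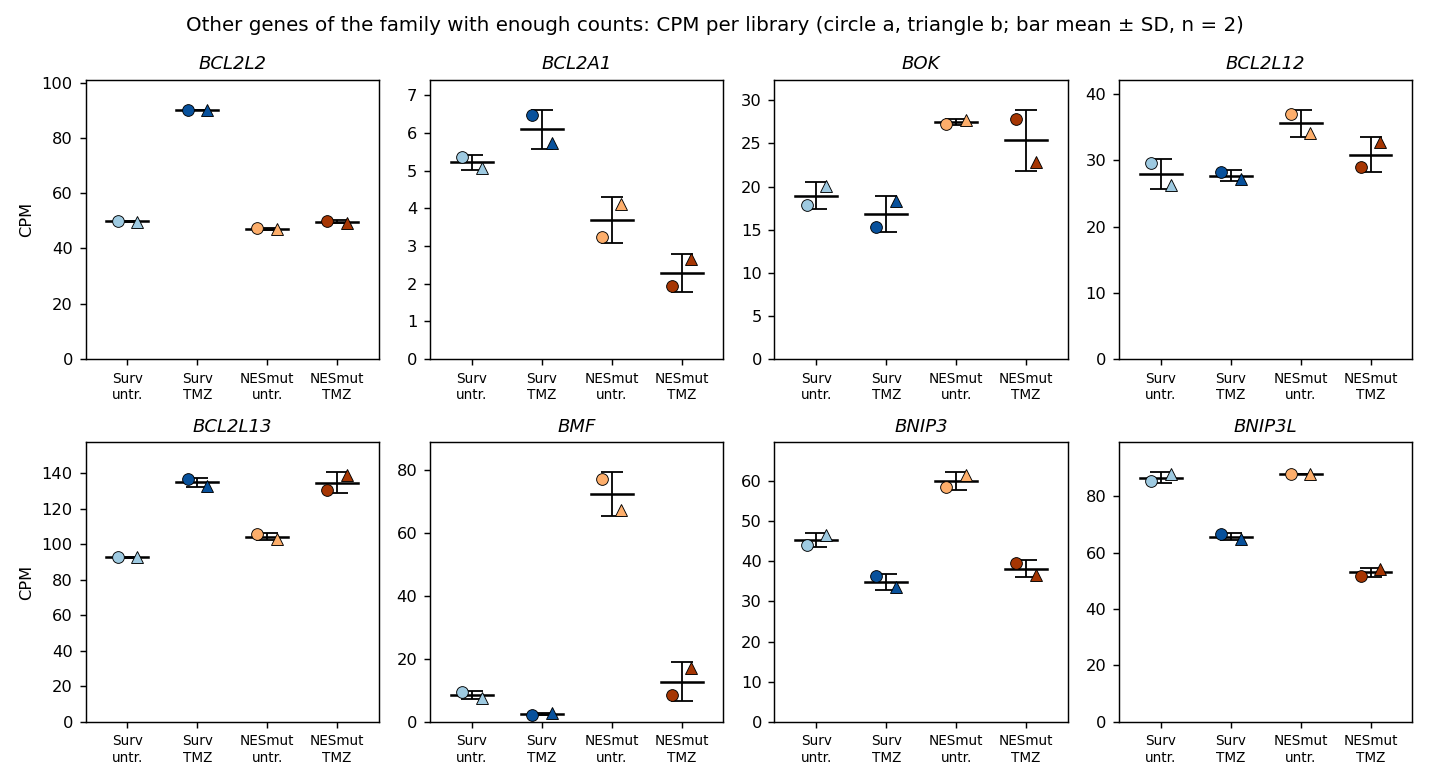
Level in CPM (linear axis from 0) of the 8 further family genes with enough counts in the 8 libraries, circles for the a and triangles for the b library, with bars for the mean ± SD (n = 2). BCL2L2 was higher only in the Surv-GFP TMZ libraries, and BMF was highest in untreated SurvNESmut-GFP.

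Genes of the mitochondrial step on which the family acts (channels, cytochrome c and the factors released with it, and the apoptosome) changed by less. Of 11 such genes, all tested, 2 rose and 4 fell in Surv-GFP, against 30.1% and 28.9% of tested genes. In SurvNESmut-GFP 0 rose and 2 fell, against 18.6% and 19.1%, with 0 rising there at an unadjusted p under 0.05 and 0 by DESeq2. Their log2 changes lay between -0.68 and 0.55 in both clones. The 3 named by the smallest p of the difference were CYCS, HTRA2 and VDAC1. CYCS, which encodes cytochrome c, went from 116 and 110.1 to 170.5 and 160.0 CPM in Surv-GFP, a log2 change of 0.55 (SE 0.06, adjusted p = 3.5e-07). In SurvNESmut-GFP it was at 124 and 116 CPM untreated and 124 and 116 CPM under TMZ. The difference was -0.55 (SE 0.08, adjusted p = 5.4e-05). HTRA2, a protease released with it, differed by -0.48 (SE 0.08, adjusted p = 0.00028), with log2 changes of 0.32 (adjusted p = 0.00024) and -0.16 (adjusted p = 0.0376; 0.307 without the SurvNESmut-GFP TMZ a library). The channel gene VDAC1 differed by 0.30 (SE 0.07, adjusted p = 0.0029), with log2 changes of -0.43 and -0.13.

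Of 12 known regulators of the members, all tested, 6 rose and 3 fell in Surv-GFP (30.1% and 28.9% of tested genes), and 5 rose and 2 fell in SurvNESmut-GFP (18.6% and 19.1% of tested genes). The TMZ effect was higher in SurvNESmut-GFP for 2 and lower for 4, where 16.6% and 20.2% of tested genes were. The 3 named by the smallest p of the difference were DDIT3, MDM2 and TP73, so that a differing TMZ effect was given by the choice. DDIT3, which encodes the stress factor CHOP, went from 30.9 and 28.6 to 277 and 281 CPM in Surv-GFP and from 15.2 and 13.5 to 41.2 and 48.4 CPM in SurvNESmut-GFP. The log2 changes were 3.23 (SE 0.07) and 1.64 (SE 0.09), and the difference was -1.59 (SE 0.12, adjusted p = 3.7e-08). MDM2, the p53 target that encodes the ligase acting on p53, went from 111 and 127 to 444 and 432 CPM in Surv-GFP and from 190.3 and 209 to 357 and 397 CPM in SurvNESmut-GFP. The difference was -0.96 (SE 0.09, adjusted p = 9.0e-07). TP73, a p53 relative, fell in Surv-GFP from 23.6 and 22.1 to 13.1 and 13.0 CPM (-0.81, SE 0.10, adjusted p = 2.2e-06), and its log2 change in SurvNESmut-GFP was -0.06 (adjusted p = 0.637), a difference of 0.75 (SE 0.13, adjusted p = 0.00033). DDIT3 and MDM2, picked by that p, rose in both clones and by less in SurvNESmut-GFP, as did the members BBC3 and PMAIP1. TP73, picked in the same way, rose in neither clone. CDKN1A had log2 changes of 3.52 and 1.96. A common cause was not tested.

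Some members share exon sequence with a gene on the other strand in the GENCODE 29 annotation (GRCh38), and which strand was counted is not stated in the sources. The share of merged exon bases was 43.0% for BCL2L1 (with ABALON), 23.7% for BAD (with GPR137), 10.9% for BCL2L11 (with MIR4435-2HG), 4.11% for BAK1 (with GGNBP1) and 2.52% for BBC3 (with MIR3190). Reads from such partners cannot be told apart without strand. BCL2, BAX, PMAIP1 and BID had no such overlap.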

How the data were processed

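RNA was sequenced from 8 libraries, 2 for each of 4 groups. The authors deposited raw read counts per gene; their processing notes name STAR 2.5.0b, Cufflinks 2.2.1 and edgeR, and no source used here gives the counting program, the annotation or the build. Reads without a gene (11.2% to 14.3%) or with ambiguous assignment (1.19% to 1.28%) were left out. The authors' 5 comparison tables (log2 fold changes, log2 CPM, F statistics, p-values and FDR) were not used. Genes were filtered with filterByExpr, scaled by TMM and tested with edgeR 4.0.16 (R 4.3.3; quasi-likelihood F test, 4 group means over all 8 libraries, common biological coefficient of variation 4.09%), with Benjamini-Hochberg adjustment over 14201 genes in each of 5 comparisons. The letters a and b were not used as pairs: deviations of same-lettered libraries correlated at -0.067 to 0.083. The paper's legends describe 2 independent biological replicates in technical duplicates; which of these the letters stand for is not given, so p-values measure only the spread between these libraries, which may be technical. The members and lists were chosen with earlier results of these data known; all 10 members and every tested further family gene are named, and of the other lists the 3 genes with the smallest p for the difference. The 2-fold counts, the ratios and the 6-base motifs were chosen after values were seen. Promoter windows are from RefSeq (GRCh38.p14), exon overlaps and lengths from GENCODE 29. Scripts were tested on simulated data. Alternatives were DESeq2 1.42.0 and its size factors, no scaling factors, other filters, other quasi-likelihood settings, a replicate block, fewer groups and leaving out each library.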

Additional observations from a re-analysis of the deposited data

Results flagged for a closer look

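The following genes had TMZ effects that differed between the clones in a direct test (log2 change in SurvNESmut-GFP minus Surv-GFP, edgeR's interaction, adjusted p under 0.05). Single libraries far from their group were not tested for, since the test used needs at least 4 samples a group. Of the 10 members 8 were of this kind, where 20.2% of tested genes were called lower and 16.6% higher. BBC3 (-1.52), PMAIP1 (-1.38), BAX (-0.35) and BAD (-0.32) responded less in SurvNESmut-GFP. BCL2 (0.89), BCL2L11 (0.54), BID (0.51) and BCL2L1 (0.30) had the higher value there. For BCL2L11, BID and BCL2L1 leaving out a single library could end the call. Of the 8 further family genes 4 differed, BCL2A1 (-0.92), BCL2L2 (-0.78), BNIP3L (-0.33) and BNIP3 (-0.28). BNIP3 was not called with library size alone. The 6 genes named from the mitochondrial and regulator lists were picked by the smallest p of this same test, so their passing it was given by the choice. They are DDIT3 (-1.59), MDM2 (-0.96), CYCS (-0.55) and HTRA2 (-0.48) toward the lower side, TP73 (0.75) and VDAC1 (0.30) toward the higher. Of all 11 mitochondrial genes 2 differed toward the higher side and 3 toward the lower. Of all 12 regulators 2 differed toward the higher side and 4 toward the lower. For BCL2, BID and BCL2A1 the sign of the log2 change was opposite in the clones, but in each case only 1 of the 2 changes passed its own test. For CYCS the log2 change in SurvNESmut-GFP was -0.0051, with a sign that depended on the processing. HTRA2 rose in Surv-GFP (0.32) and fell in SurvNESmut-GFP (-0.16), both past the test, though without the SurvNESmut-GFP TMZ a library the latter was -0.092 (adjusted p = 0.307).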

How the results depend on the processing

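Against the values above, 17 alternatives were computed, and 16 for the difference of the TMZ effects, which has no fit of 4 libraries. The number of members that fell under TMZ in SurvNESmut-GFP was 2; it was 1 with library size alone or only the 4 libraries compared, 0 with DESeq2 or a robust prior, and 0 to 2 with single libraries left out (0 without untreated SurvNESmut-GFP a; 1 without SurvNESmut-GFP TMZ a, untreated SurvNESmut-GFP b or either untreated Surv-GFP library). Leaving out single libraries gave 2 to 4 members with a higher TMZ effect in SurvNESmut-GFP (2 without untreated Surv-GFP b, Surv-GFP TMZ a or untreated SurvNESmut-GFP a) and 3 to 5 members lower in SurvNESmut-GFP under TMZ (5 without SurvNESmut-GFP TMZ b). Adding the letter as a replicate block gave the same counts of members in all 5 comparisons (6 higher and 3 lower for TMZ in Surv-GFP) and 4186 genes higher there. Directions changed only for values that did not pass the test: CYCS under TMZ in SurvNESmut-GFP became 0.031 with library size alone. Over libraries left out, log2 ranges crossing 0 were -0.24 to 0.082 for MCL1 and -0.0901 to 0.078 for BCL2L12 (TMZ in Surv-GFP), -0.050 to 0.083 for BAD, -0.0540 to 0.047 for CYCS, -0.16 to 0.043 for TP73 and -0.26 to 0.026 for BOK (TMZ in SurvNESmut-GFP), -0.091 to 0.22 for BOK (difference), and -0.0089 to 0.12 for BBC3 and -0.31 to 0.15 for BCL2L11 (clones under TMZ). The cause was not tested.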

Other observations

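Levels can be compared between members only per length. Per kb of merged exons in GENCODE 29, which may not be the annotation of the counts, MCL1 was the highest of the 10 members in every group, with group means of 151.6, 142.3, 120.8 and 99.1 CPM per kb (untreated Surv-GFP, Surv-GFP under TMZ, untreated SurvNESmut-GFP and SurvNESmut-GFP under TMZ). BCL2 was at 0.89 to 1.44 CPM per kb and ranked 9 or 10. In untreated Surv-GFP, BAD (32.0 ± 0.0063, SD, n = 2) and BAX (32.0 ± 0.77) did not differ beyond their spread, and BBC3 was the lowest at 1.22 CPM per kb. Under TMZ PMAIP1 stood next after MCL1 in Surv-GFP, at 84.6 ± 1.97 CPM per kb, and ranked 5 in SurvNESmut-GFP, at 35.6 ± 0.63, below BAX (68.1), BCL2L1 (51.4) and BAD (38.0).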
